A study of Sus scrofa with 8 samples.

Results

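The 150 probesets whose signal differed most among gilts of the same breed were taken from endometrium of 8 pregnant pigs. They were chosen from 10211 bright probesets, those with a mean log2 signal of at least 8 (a signal of 256), out of 23999 probesets left after the controls were removed. The rule used the measured values themselves: the SD of log2 signal was taken among the 4 gilts of each breed, the square root of the mean of the 2 variances gave the pooled within-breed SD, and the 150 highest were kept. All values of spread below are therefore a description and carry no test.

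The 4 Meishan and 4 Yorkshire gilts (young females in their first pregnancy) had been mated naturally to boars of their own breed and were sampled on gestation day 12, when the conceptuses are elongating. The Meishan is a prolific Chinese breed and the Yorkshire a European one. No group was treated, and each gilt is 1 array of the Affymetrix Porcine Genome design, so the dam's and the conceptus's breed cannot be told apart. Gilts were used only if their conceptuses had reached the filamentous stage, days were counted from the first mating, mating fell at the second or the third estrus, and ages are not given in the sources used here. Endometrium was cut from the whole lumen near the junction of the uterine horns.

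By textbook knowledge, the pig conceptus elongates within hours around this day and releases estrogen, interleukin 1 beta and interferon gamma, while the uterine epithelium changes its secretions (histotroph), its hormone receptors and its transport of ions, water and nutrients. Progesterone-responsive glands, estrogen-inactivating enzymes and adhesion molecules change quickly over the same days. Bulk tissue cannot separate a smaller number of cells of a type from less RNA per cell.

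The tissue label fitted the markers of epithelium. Of 13 listed epithelial genes 12 were measured and all 12 were bright, with a mean log2 signal between 11.02 and 11.60 in Meishan and between 11.01 and 11.67 in Yorkshire gilts. Smooth muscle genes were also present, ACTA2 (smooth muscle actin) between 6189 and 15850, while DES (desmin) reached only 182. The deposited signals had a 2% trimmed mean of 500.1 on every array, and array medians lay between 168 and 195 for Meishan gilts and between 171 and 187 for Yorkshire gilts. The gilts were separate animals, and their number limits the precision of every value.

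The pooled SD of the 150 probesets ran from 3.13 to 1.02 on the log2 scale with a median of 1.30, while the other bright probesets had a median of 0.29. An SD of 1.30 corresponds to a 2.47-fold factor. The probeset ranked 150, which has no name in either source, had a pooled SD of 1.018 and the next one, to which the annotation gives both CRADD and SOCS2, of 1.016. The level of the 150 was that of bright probesets in general, with a median of 9.44 in each set. In 129 of the 150 every gilt was at a signal of 64 or more, and in 21 at least 1 gilt lay under it. The annotation gave exactly 1 symbol to 82 of them (74 different genes), several to 4 and none to 64, of which the study's supplementary table names 8.

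**Figure D1:**
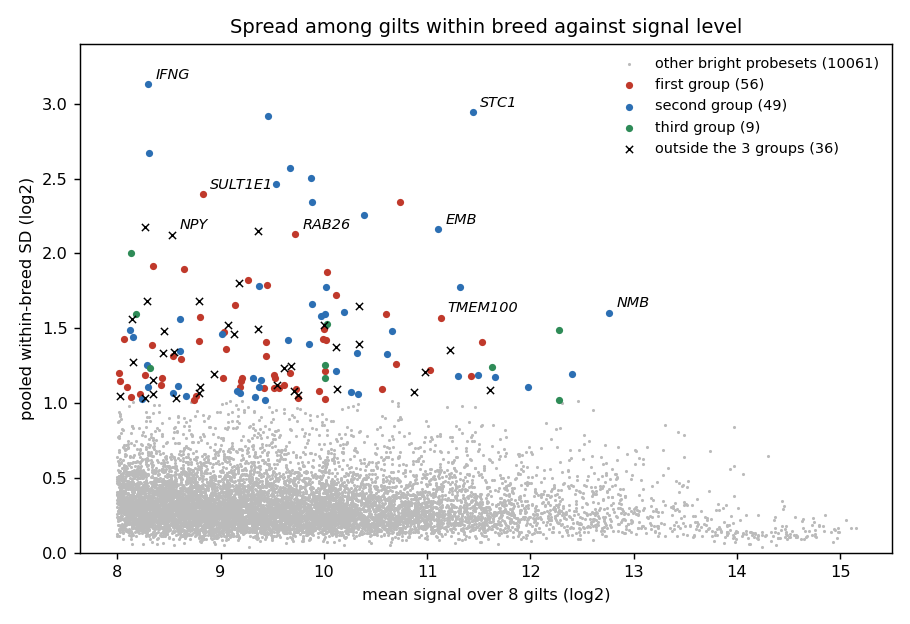
Pooled within-breed SD (y axis, log2) against the mean signal over 8 gilts (x axis, log2) for the 10211 bright probesets, with the 150 most variable coloured by the group they vary with. IFNG at 3.13 and STC1 at 2.94 stand highest, and the 150 lie above 1.02 at every level where they occur.

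IFNG (interferon gamma, the type II interferon) was the most variable of all. Its signals were 14.2, 904, 304 and 114 in Meishan 1 to 4 and 4604, 221, 6286 and 33.5 in Yorkshire 1 to 4. The range was 63.8-fold within Meishan and 188-fold within Yorkshire gilts, and the breeds overlapped. STC1 (stanniocalcin 1, a glycoprotein hormone secreted by pig uterine epithelium) came next, with 150, 11860, 9478 and 300 in Meishan 1 to 4 and 13740, 6894, 18750 and 385 in Yorkshire 1 to 4. Meishan 1 and 4 and Yorkshire 4 were low and the other gilts high. SULT1E1 (the sulfotransferase that inactivates estrogens) gave 5045, 144, 475 and 397 in Meishan 1 to 4 and 319, 73.8, 130 and 4330 in Yorkshire 1 to 4. Here Meishan 1 and Yorkshire 4 were the high gilts.

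To find which transcripts varied together, each signal was expressed as its deviation from the breed mean, and probesets were joined by the Pearson correlation of these deviations over 8 gilts (average linkage, height 0.5). In all, 3 groups of at least 8 probesets held 114 of the 150. The first held 56 probesets (28 named genes), the second 49 (25 named genes) and the third 9 (3 named genes), and the other 36 fell into 12 smaller sets, single probesets included. Groups cut from the same values they describe carry no test.

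**Figure D2:**
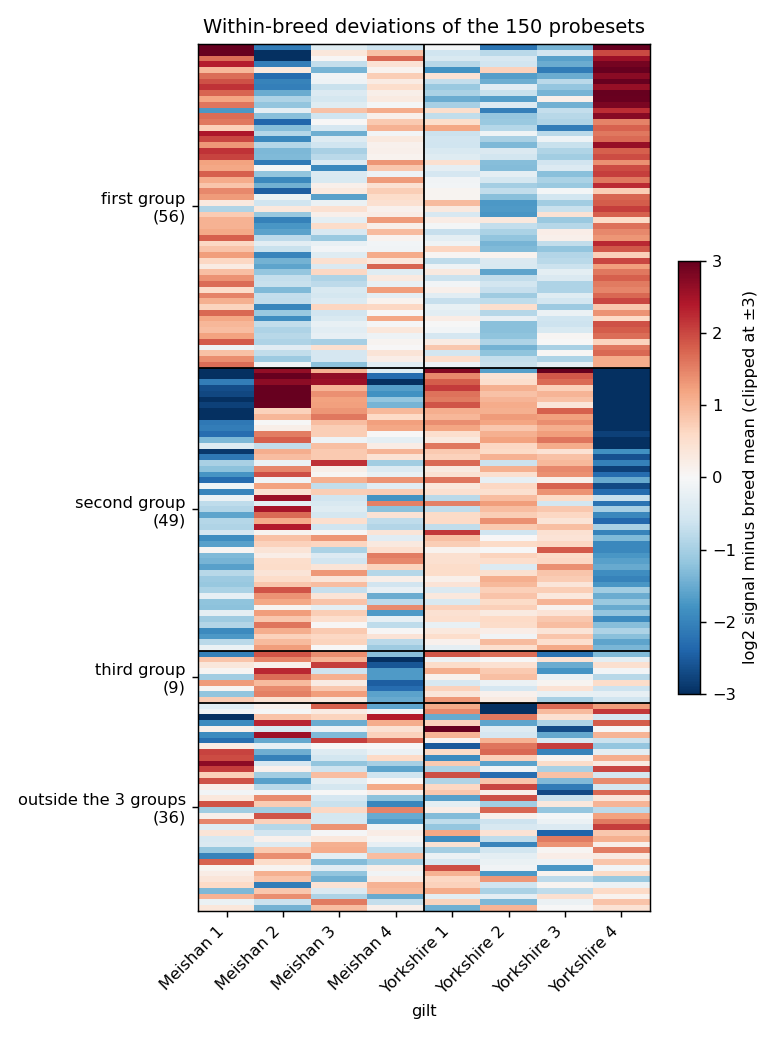
Deviation of log2 signal from the breed mean for the 150 probesets (rows, in order of pooled SD within each group) in the 8 gilts (columns), red above and blue below the breed mean. The first group is red in Meishan 1 and Yorkshire 4, the second is blue in the same gilts, and the third is blue in Meishan 4.

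Transcripts of the first group were high in Meishan 1 and Yorkshire 4. Among Yorkshire gilts all 56 were highest in Yorkshire 4, and among Meishan gilts 44 were highest in Meishan 1 and 45 lowest in Meishan 2. The median deviation over the group was 1.23, -1.19, -0.42 and 0.26 in Meishan 1 to 4 and -0.19, -0.89, -0.80 and 1.80 in Yorkshire 1 to 4, on the log2 scale. Pairs of its members correlated with a mean r of 0.74 over 8 gilts.

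Its secretory and signalling members included RAB26 (a small GTPase of secretory vesicles), with 4790, 139, 1551 and 4977 in Meishan 1 to 4 and 346, 343, 153 and 2791 in Yorkshire 1 to 4. Meishan 4 stood beside Meishan 1 for this gene. AMY2 (alpha-amylase, which digests starch) gave 5783, 618, 1300 and 1955 in Meishan 1 to 4 and 366, 451, 273 and 5756 in Yorkshire 1 to 4 at the more variable of its 2 probesets in the group. TMEM100 (a membrane protein known from vessel formation) gave 8896, 1174, 1864 and 3121 in Meishan 1 to 4 and 1087, 802, 1008 and 12040 in Yorkshire 1 to 4. Yorkshire 4 was thus far above the other Yorkshire gilts for both, whereas the Meishan gilts were spread more evenly. LOC100158115 was highest in Yorkshire 4 too, at 6289 against 256 to 900 in the other Yorkshire gilts. LPAR3, a receptor for lysophosphatidic acid that is required for normal embryo spacing in mice, gave 8924, 890, 2918 and 9705 in Meishan 1 to 4 and 3136, 939, 1512 and 5818 in Yorkshire 1 to 4 at its brighter probeset.

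Transport genes were also found in the first group. AQP3 (a water and glycerol channel) gave 6542, 2384, 878 and 4011 in Meishan 1 to 4 and 1069, 421, 697 and 3371 in Yorkshire 1 to 4. SCNN1B (the beta subunit of the epithelial sodium channel) gave 968, 146.6, 319 and 853 in Meishan 1 to 4 and 133, 112, 247 and 586 in Yorkshire 1 to 4. ATP1B1 (a beta subunit of the sodium pump) gave 2090, 600, 749 and 1078 in Meishan 1 to 4 and 360, 340, 395 and 2321 in Yorkshire 1 to 4. All 3 were highest in Meishan 1 and Yorkshire 4 within their breeds. SLC2A3 (a glucose transporter) followed the same order at the top, with 1296 in Meishan 1 against 281 to 384 in the other Meishan gilts and 2419 in Yorkshire 4 against 354 to 597 in the other Yorkshire gilts.

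Further members of the first group, chosen for mention after their values were seen, were CCL28 (a chemokine of mucosal epithelia), IL1R1 (the signalling receptor of interleukin 1), BCAT1 (which transaminates branched-chain amino acids), STEAP4 (a metalloreductase) and MFAP5 (a microfibril protein). STEAP4 gave 5180, 1169, 1400 and 2304 in Meishan 1 to 4 and 339, 199, 322 and 3101 in Yorkshire 1 to 4. IL1R1 gave 4145, 514, 1359 and 4190 in Meishan 1 to 4 and 1439, 1039, 809 and 1857 in Yorkshire 1 to 4, so that its SD was 1.46 among Meishan and 0.53 among Yorkshire gilts. CCL28 had the opposite balance, with an SD of 0.48 among Meishan gilts (2218 to 4678) and 1.66 among Yorkshire gilts (393 to 4611). CRYAB (a small heat shock protein) was highest in Meishan 4 at 2556, against 257 to 904 in the other Meishan gilts. OPTC (opticin, a small proteoglycan) was also an exception, being lowest among Meishan gilts in Meishan 1 at 106 and highest in Meishan 4 at 760, while Yorkshire 4 stood at 2632.

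The second group was its mirror image. Of its 49 probesets 48 were lowest in Yorkshire 4 among Yorkshire gilts and 37 were lowest in Meishan 1 among Meishan gilts. The median deviation was -1.36, 1.08, 0.67 and -0.25 in Meishan 1 to 4 and 0.54, 0.68, 0.84 and -1.94 in Yorkshire 1 to 4, with a mean r of 0.70 between members. IFNG and STC1 belonged to it. The probeset ranked 4, which neither source names, also lay in it and gave 40.9, 2526, 528 and 81.4 in Meishan 1 to 4 and 1677, 815, 636 and 26.4 in Yorkshire 1 to 4.

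Several named genes of the second group encode secreted proteins. NMB (neuromedin B, a peptide of the bombesin family) was the brightest of the 150, with 1144, 9685, 8795 and 6862 in Meishan 1 to 4 and 15260, 19410, 17210 and 1546 in Yorkshire 1 to 4. IGFBP2 (a carrier of insulin-like growth factors) gave 110, 597, 723 and 741 in Meishan 1 to 4 and 859, 861, 1573 and 126 in Yorkshire 1 to 4. GPX3 (the secreted glutathione peroxidase) gave 249, 1600, 657 and 440 in Meishan 1 to 4 and 2123, 3615, 4694 and 247 in Yorkshire 1 to 4. In NMB and IGFBP2 a single gilt of each breed stood apart at the low end, Meishan 1 and Yorkshire 4. TF (transferrin, the iron carrier) gave 50.1, 399, 327 and 195 in Meishan 1 to 4 and 1102, 1008, 1162 and 467 in Yorkshire 1 to 4, and TGFB2 (a growth factor of the transforming growth factor beta family) was lowest in Yorkshire 4 at 93.3.

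Other members of the second group were EMB, SLC39A2 and CBR2. EMB (embigin, a membrane glycoprotein that accompanies lactate transporters) gave 635, 2795, 5355 and 6558 in Meishan 1 to 4 and 4537, 3967, 4599 and 111 in Yorkshire 1 to 4 at its brighter probeset. SLC39A2 (a zinc importer) gave 1316, 6469, 6328 and 4902 in Meishan 1 to 4 and 12080, 10710, 11230 and 1914 in Yorkshire 1 to 4. CBR2 (a carbonyl reductase) gave 157, 2188, 1257 and 765 in Meishan 1 to 4 and 2021, 2982, 3407 and 204 in Yorkshire 1 to 4. For all 3 genes Yorkshire 4 lay below every other Yorkshire gilt and Meishan 1 below every other Meishan gilt. LOC100517803, which the study's table calls GLYAT, did so too, with 64.1 in Meishan 1 against 810 to 1009 in the other Meishan gilts and 841 in Yorkshire 4 against 4010 to 5126 in the other Yorkshire gilts.

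Not every member of the second group had Meishan 1 as its lowest Meishan gilt. GBP1 (an interferon-induced GTPase) gave 304, 3150, 436 and 242 in Meishan 1 to 4 and 918, 2907, 2673 and 760 in Yorkshire 1 to 4. GBP2 gave 174, 1175, 130 and 57.1 in Meishan 1 to 4 and 234, 778, 611 and 255 in Yorkshire 1 to 4. Meishan 4 was the lowest Meishan gilt for both at these probesets, although Meishan 1 was the lowest, at 470, at the other GBP1 probeset of the group. Meishan 2 alone held 52.9% of the squared deviations of either gene at these probesets, and the 4 Yorkshire gilts fell into a high and a low pair. IL1B (interleukin 1 beta, known as a product of the elongating conceptus) was lowest in Meishan 1 and Yorkshire 4 within their breeds but varied mainly among Yorkshire gilts, with 210, 311, 303 and 384 in Meishan 1 to 4 and 1447, 220, 454 and 83.2 in Yorkshire 1 to 4. THY1 (a surface glycoprotein of fibroblasts and T cells) was lowest among Meishan gilts in Meishan 3 and had an SD of 0.85 among Meishan gilts, with 502 to 1955, and of 1.91 among Yorkshire gilts, with 474 to 10580.

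**Figure D3:**
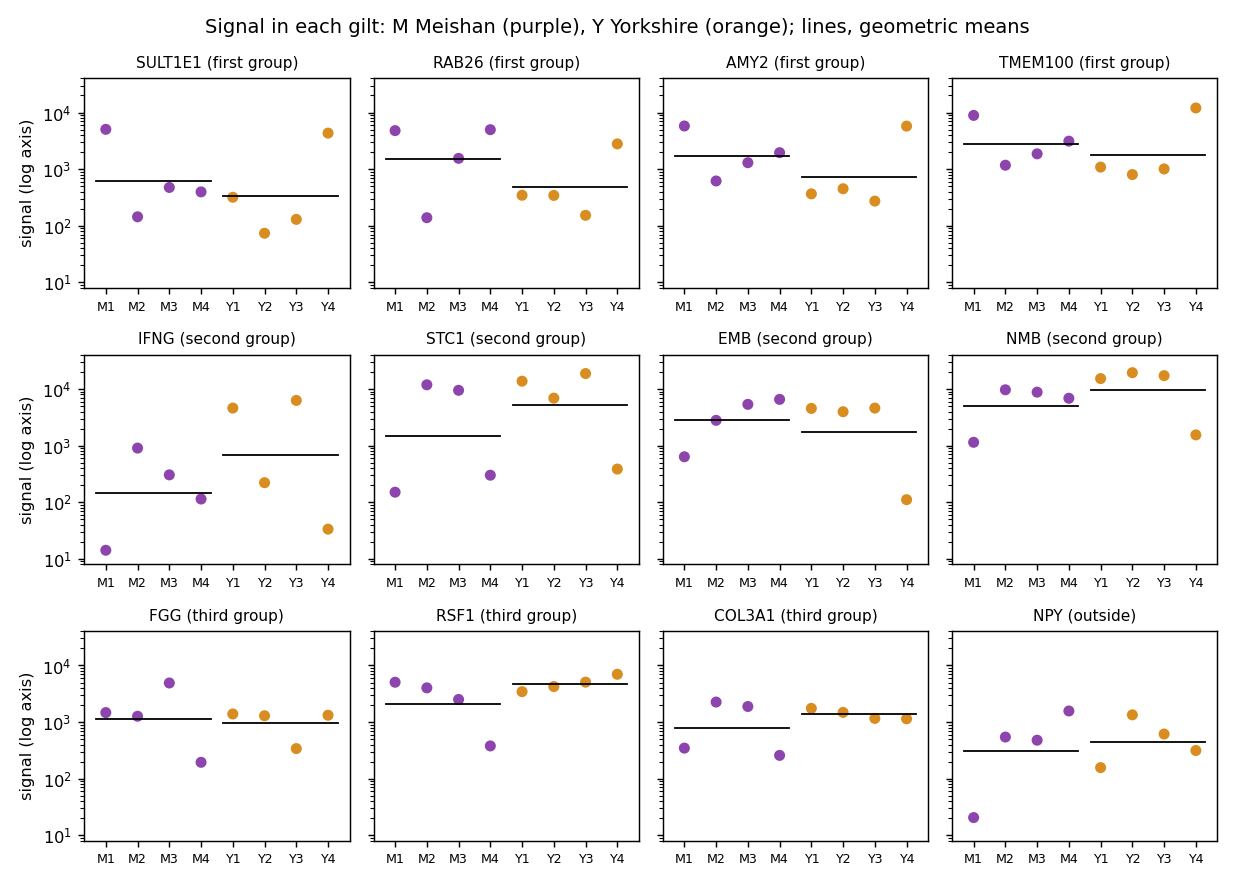
Signal (log axis) of 12 named genes in each gilt, M for Meishan and Y for Yorkshire, with a line at the geometric mean of each breed. SULT1E1 rises to 5045 in Meishan 1 and 4330 in Yorkshire 4, while IFNG falls to 14.2 and 33.5 in the same gilts, and RSF1 drops to 379 in Meishan 4 alone.

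Of the 2744 pairs made of 1 member of the first and 1 of the second group, 99.6% had a correlation below 0 over 8 gilts, with a mean of -0.71. The opposition was present within each breed, with a mean r of -0.61 over the 4 Meishan and -0.83 over the 4 Yorkshire gilts. A single component took up 60.5% of the squared deviations of the 150 probesets, with weights of 0.48, -0.41, -0.17 and 0.10 in Meishan 1 to 4 and -0.17, -0.22, -0.25 and 0.64 in Yorkshire 1 to 4. Across the 150 probesets the deviations of Meishan 1 and Yorkshire 4 correlated at 0.77, and those of Meishan 2 and Yorkshire 4 at -0.65. Yorkshire 4 held 27.6% of all squared deviations and Meishan 1 held 17.8%, against 17.4% and 18.9% over the other bright probesets. The remaining gilts held between 5.77% (Meishan 3) and 15.8% (Meishan 2) for the 150.

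The same axis ran through less variable transcripts. Over the 10061 other bright probesets the leading component took up 42.9% of the squared deviations, with weights of 0.57, -0.43, -0.26 and 0.12 in Meishan 1 to 4 and -0.08, -0.26, -0.20 and 0.54 in Yorkshire 1 to 4. Among these probesets 11.4% correlated at 0.8 or more with the median profile of the first group and 6.77% with that of the second.

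How far the pattern rests on Meishan 1 and Yorkshire 4 was measured by leaving them out. Without Yorkshire 4 the same rule kept 110 of the 150 probesets and without Meishan 1 it kept 122. The mean r between the first and second groups was -0.52 over the 7 gilts without Yorkshire 4 and -0.70 without Meishan 1. With both left out, an alternative chosen after the data were seen, 82 of the 150 were kept, the mean r between the groups was -0.28 over 6 gilts, and the mean r within the second group fell to 0.18 from 0.70. Within the first group it was 0.51.

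Several measures moved with these gilts. The ratio of 3' to 5' signal of GAPDH on the control probesets, which rises as RNA is degraded or copied incompletely, was 3.41, 7.14, 4.56 and 4.15 in Meishan 1 to 4 and 4.04, 4.98, 5.68 and 3.38 in Yorkshire 1 to 4. Meishan 1 and Yorkshire 4 had the lowest GAPDH ratio of their breeds and Meishan 2 the highest of all. The EF1A ratio did not follow, being lowest in Meishan 3 (0.884, with 0.887 in Meishan 1) and in Yorkshire 2 (0.84, with 0.877 in Yorkshire 4). The actin ratio was 1.56, 3.32, 2.91 and 2.63 in Meishan 1 to 4 and 2.01, 2.48, 4.45 and 2.26 in Yorkshire 1 to 4, lowest in Meishan 1 but not in Yorkshire 4. Heat shock genes outside the 150 had mean deviations of 0.45, -0.24, -0.26 and 0.05 in Meishan 1 to 4 and -0.16, -0.13, -0.12 and 0.41 in Yorkshire 1 to 4. They were not alone in this. Immediate early genes had 0.72, 0.00, -0.42 and -0.30 in Meishan 1 to 4 and -0.30, -0.04, 0.09 and 0.25 in Yorkshire 1 to 4. Extracellular protease genes were also highest in these gilts, at 0.42 in Meishan 1 and 0.17 in Yorkshire 4. Added control transcripts (9 probesets) had a mean log2 signal of 11.49 to 12.37 in Meishan and 10.42 to 10.97 in Yorkshire gilts. The breeds thus did not overlap in these controls. Their mean was lowest in Meishan 1 and highest in Meishan 2 among Meishan gilts, and lowest in Yorkshire 2 and highest in Yorkshire 1 among Yorkshire gilts. The part of these measures in the result, breed differences included, was not tested. RNA below an integrity number of 7 had been excluded by the study, and the value of each gilt is not given in the sources used here.

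Epithelial and smooth muscle markers moved with these gilts by less than the heat shock genes did. The 12 epithelial genes had mean deviations of 0.31, -0.28, -0.12 and 0.09 in Meishan 1 to 4 and -0.13, -0.34, 0.16 and 0.32 in Yorkshire 1 to 4, and their summed signal lay between 34820 and 53960 for Meishan gilts and between 37070 and 53260 for Yorkshire gilts. The 12 measured smooth muscle genes had 0.24, -0.21, -0.08 and 0.05 in Meishan 1 to 4 and -0.11, -0.07, -0.08 and 0.25 in Yorkshire 1 to 4, with sums from 27540 to 40210 and from 32250 to 43870. Both lists were thus highest in Meishan 1 and Yorkshire 4, by 0.24 to 0.32 on the log2 scale. The median of the first group was 1.23 and 1.80 there. Its probesets were chosen for wide spread and the lists were not, so the 2 sizes cannot be compared. Markers of blood cells, mostly dim, did not share 1 pattern: erythrocyte genes had -0.77 in Meishan 3 and -0.40 in Yorkshire 4, and B and plasma cell genes -0.64 in Yorkshire 3 and 0.42 in Yorkshire 4. Macrophage and granulocyte genes had -0.34, 0.33, 0.10 and -0.09 in Meishan 1 to 4 and -0.09, -0.15, 0.38 and -0.14 in Yorkshire 1 to 4. These and the T and NK cell genes each correlated at 0.69 with the profile of the second group. The values were 0.22 for erythrocyte and -0.26 for B and plasma cell genes. They were larger in size for smooth muscle (-0.97) and epithelial genes (-0.81), and for heat shock genes outside the 150 (-0.96). With the profile of the first group these 3 lists correlated at 0.95, 0.82 and 0.93. Of 12 bright epithelial and 9 bright smooth muscle genes 0 were among the 150. Over all bright named genes the share was 1.69%, so a count of 0 is close to that background. Whether tissue composition takes part was not tested.

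Markers of the possible sources of IFNG were set beside it. Of 22 listed T and NK cell genes 14 were measured and 1 was bright, with summed signals of 984 to 2212 for Meishan gilts and 1922 to 1975 for Yorkshire gilts and PRF1 (perforin) under 64 in all gilts. Their mean deviations were -0.89, 0.50, 0.24 and 0.14 in Meishan 1 to 4 and 0.04, 0.02, 0.06 and -0.11 in Yorkshire 1 to 4, lowest in the gilts where IFNG was lowest. In Meishan 1 CD3D stood at 5.90 and GNLY at 9.51, against 102 and 242 or more in the other Meishan gilts. Both genes were dim. Of the measured genes all but CD2, CD4 and CD8B were lowest in Meishan 1 among Meishan gilts. Yorkshire 4 was mixed. Among Yorkshire gilts CD3E, CD3G, CD8B, CD247, PRF1 and CCL5 were lowest there. CD3D (91.04), GNLY (277.3), CD2 (163.6) and CD69 (276.8) were highest there. Of 25 listed conceptus genes 16 were measured, with summed signals (IFNG and IL1B included) of 8633 to 11640 for Meishan gilts and 10960 to 20230 for Yorkshire gilts and with CYP19A1 (aromatase), STAR and AFP under 64 in every gilt. The 14 of these outside the 150 had mean deviations of -0.21, -0.18, 0.48 and -0.10 in Meishan 1 to 4 and 0.23, -0.13, 0.13 and -0.23 in Yorkshire 1 to 4. HAND1, a transcription factor of trophoblast on the same list, gave 63.8, 82.3, 43.4 and 135.3 in Meishan 1 to 4 and 249.8, 48.4, 185.3 and 52.1 in Yorkshire 1 to 4. Among Yorkshire gilts it was thus high in the same gilts as IFNG. Among Meishan gilts it did not follow IFNG, being highest in Meishan 4 and lowest in Meishan 3. On that list APOA1 was also highest in Yorkshire 3 and 1 (10330 and 9368). TFAP2C, which was dim, was highest in Yorkshire 4 and lowest in Yorkshire 1 (71.1 and 26.2). PLET1, which was on the list of epithelial secretions and too dim to be chosen (mean log2 signal 6.54), gave 50.8, 249, 4.72 and 74.1 in Meishan 1 to 4 and 731, 80.4, 1549 and 14.1 in Yorkshire 1 to 4, the same order as IFNG among Yorkshire but not among Meishan gilts. Whether conceptus tissue or lymphocytes take part in the spread of IFNG or IL1B was not tested.

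The third group set Meishan 4 apart. All 9 of its probesets lay below the Meishan mean in Meishan 4, 8 of them as the lowest Meishan gilt, with a median deviation of -1.71 there against 0.06, 1.47 and 1.03 in Meishan 1 to 3. Meishan gilts held 74.5% of its squared deviations, and 8 of the 9 had the larger SD in Meishan. RSF1 (a subunit of a chromatin remodelling complex) gave 5051, 4020, 2511 and 379 in Meishan 1 to 4 and 3447, 4246, 5073 and 6989 in Yorkshire 1 to 4. FGG (the gamma chain of fibrinogen) gave 1470, 1267, 4902 and 195 in Meishan 1 to 4 and 1391, 1294, 340 and 1320 in Yorkshire 1 to 4. Low values thus fell in Meishan 4 for both, and for FGG also in Yorkshire 3.

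COL3A1 (a fibrillar collagen chain) gave 347, 2258, 1886 and 258 in Meishan 1 to 4 and 1747, 1483, 1161 and 1144 in Yorkshire 1 to 4 at the probeset among the 150. A brighter probeset that the study's table gives to COL3A1 lay between 34840 and 47790 in Meishan and between 25130 and 27510 in Yorkshire gilts, with a pooled SD of 0.14. The wide spread was therefore seen at 1 of the 2 probesets. An unnamed probeset of the group gave 293, 457, 336 and 16.3 in Meishan 1 to 4 and 424 to 692 in Yorkshire gilts, so that Meishan 4 held 72.6% of its squared deviations.

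The 36 probesets outside these groups included the hormone and peptide genes NPY and SST. NPY (neuropeptide Y, a neurotransmitter) gave 20.6, 544, 479 and 1570 in Meishan 1 to 4 and 157, 1342, 615 and 315 in Yorkshire 1 to 4, so Meishan 1 held 55.5% of its squared deviations. SST (somatostatin, an inhibitory peptide hormone), named after its values were seen, gave 14570, 1266, 3179 and 3924 in Meishan 1 to 4 and 230, 768, 171 and 1146 in Yorkshire 1 to 4. WFDC2 (a secreted protein with whey acidic protein domains) gave 622, 310, 376 and 1193 in Meishan 1 to 4 and 3543, 9223, 533 and 1588 in Yorkshire 1 to 4. No gilt was the high or low one for all 3.

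Immune and inflammatory genes lay here too. PTGS2 (the inducible enzyme of prostaglandin synthesis) gave 1527, 892, 391 and 174 in Meishan 1 to 4 and 656, 721, 973 and 3279 in Yorkshire 1 to 4. DEFB1 (beta-defensin 1, an antimicrobial peptide) gave 935, 429, 160 and 65.5 in Meishan 1 to 4 and 391, 230, 588 and 959 in Yorkshire 1 to 4. Within their breeds both were highest in Meishan 1 and Yorkshire 4 and lowest among Meishan gilts in Meishan 4, and they shared a set of 7 probesets. LOC396781, a RefSeq entry with the synonym IGHG (immunoglobulin gamma heavy chain), gave 155.6, 2845, 206 and 1246 in Meishan 1 to 4 and 938, 193, 304 and 2050 in Yorkshire 1 to 4. C1QTNF3 (a secreted protein related to complement C1q) varied almost only among Yorkshire gilts, from 60.5 in Yorkshire 3 to 3188 in Yorkshire 1, and lay between 183 and 345 in Meishan gilts.

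Some of these probesets varied mostly among Yorkshire gilts. The probeset that the study's table names ATP2C1 (a calcium pump of the Golgi) gave 149.3, 155, 188 and 151.3 in Meishan 1 to 4 and 7256, 119, 5151 and 11760 in Yorkshire 1 to 4, so that Yorkshire 2 stood with the Meishan gilts. A probeset annotated TNFAIP1, which the study's table calls RPL14, gave 771, 560, 684 and 657 in Meishan 1 to 4 and 21.1, 365, 505 and 53.7 in Yorkshire 1 to 4. An unnamed probeset lay between 4039 and 4894 in Meishan gilts and at 2281, 1487, 201 and 4331 in Yorkshire 1 to 4.

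With all gilts in, the 150 probesets were divided evenly between the breeds in their spread. In 75 the SD was larger among Meishan and in 75 among Yorkshire gilts, while 55.9% of bright probesets had the larger SD among Meishan gilts. The even split moved with single gilts. When 1 gilt was left out and 150 probesets were chosen anew, the count wider in Meishan was 56 to 100. It was highest without Yorkshire 4 and 96 without Meishan 3. The median SD was 1.30 in each breed for the 150, against 0.29 in Meishan and 0.27 in Yorkshire gilts over all bright probesets. Both SDs exceeded 1 in 82 probesets, only the Meishan SD did in 31 and only the Yorkshire SD in 37. The SDs differed by over 2 times in 37 cases, with 18 wider in Meishan and 19 wider in Yorkshire gilts.

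Wide spread in Yorkshire gilts beside little in Meishan gilts was seen for the ATP2C1 probeset (SD 3.04 against 0.16), TNFAIP1 (2.20 against 0.19), C1QTNF3 (2.35 against 0.39), IL1B (1.74 against 0.36) and HNRNPL (2.24 against 0.72). The reverse was seen for COL3A1 (1.62 in Meishan against 0.30 in Yorkshire), RSF1 (1.70 against 0.43), IL1R1 and GBP2 (1.85 against 0.88). Some of this spread rested on 1 gilt. HNRNPL, a splicing factor, gave 97.3 in Yorkshire 4 and 1468 to 2877 in the other Yorkshire gilts, and its pooled SD went from 1.66 to 0.62 without Yorkshire 4. That of RSF1 went from 1.24 to 0.47 without Meishan 4. In 40 of the 150 (26.7%) a single gilt held more than 50% of the squared deviations, as in 22.2% of all bright probesets. Yorkshire 4 was that gilt in 17 of them.

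**Figure D4:**
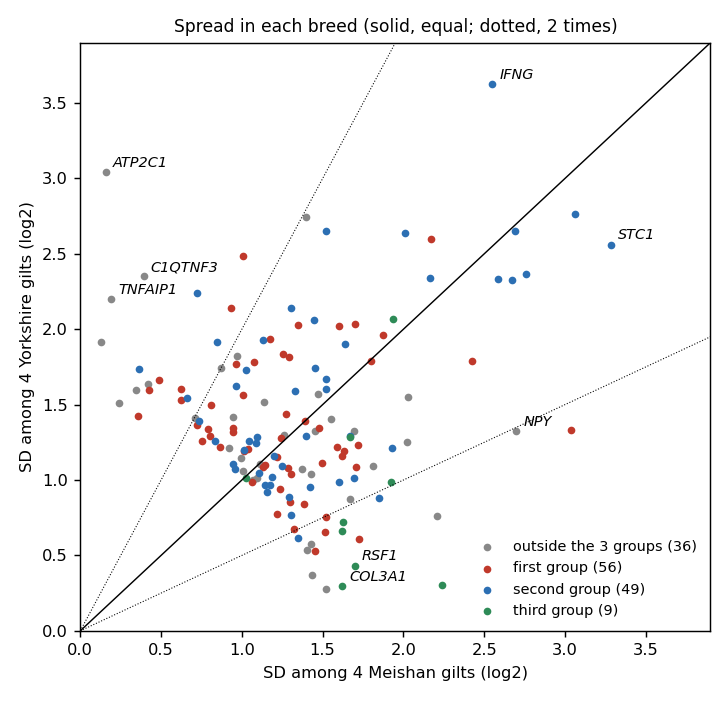
SD of log2 signal among the 4 Yorkshire gilts (y axis) against that among the 4 Meishan gilts (x axis) for the 150 probesets, coloured by group. Points of the first and second groups lie on both sides of the solid line of equal SD, 8 of the 9 third-group points lie under it, and the ATP2C1 probeset at 3.04 against 0.16 lies farthest from it.

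The breeds were then compared for the same 150 probesets, a contrast that the rule had not used, although a wide spread also widens its error. By limma with Benjamini-Hochberg adjustment over all 23999 probesets, 0 of the 150 were called at an adjusted p under 0.1. The share called was 0.908% over all probesets and 0.813% over bright ones, so a count of 0 in 150 is close to that background. At an unadjusted p under 0.05 there were 19 (12.7%), against 13.4% of bright probesets. The median size of the breed difference was 0.81 with a median SE of 0.81, whereas both were 0.23 over bright probesets. In 7 of the 150 (4.67%) every gilt of 1 breed lay above every gilt of the other, a share below the 11.9% of bright probesets that separate the breeds in this way.

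Apart from TNFAIP1 and TF, these 7 were named after their values were seen. SST was higher in Meishan gilts by 3.17 ± 0.86 (log2, SE, n = 4 per breed, limma adjusted p = 0.170). Probesets that the study's table names PENK (the precursor of enkephalins) and HIGD1B were lower in Meishan by 3.32 and 3.46, at limma adjusted p = 0.173 and 0.120. A brighter probeset that the study's table also gives to HIGD1B went the other way. It lay between 1478 and 3468 in Meishan and between 992 and 1387 in Yorkshire gilts, so the direction holds for the probeset only. TF differed by -2.22 ± 0.65 (limma adjusted p = 0.190) and TNFAIP1 by 2.47 ± 0.96 (limma adjusted p = 0.292), Meishan minus Yorkshire. The probesets named DEPDC5 and RIMS4 in the study's table had the lowest adjusted p of the 150, 0.107 in limma for each, with differences of -3.12 ± 0.65 and 3.10 ± 0.65. None of the 7 passed. With an intensity trend in the prior all but TNFAIP1 did (4.00% of the 150, where that fit called 2.61% of all probesets). The adjusted p of the HIGD1B probeset among the 150 was then 0.0408 in limma.

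For the most variable genes the breed difference was of about the size of its SE. IFNG differed by -2.23 ± 1.91 (SE, limma adjusted p = 0.636) and STC1 by -1.77 ± 1.80 (limma adjusted p = 0.695), Meishan minus Yorkshire. That of the ATP2C1 probeset was larger, at -4.07 ± 1.32 (limma adjusted p = 0.221). SULT1E1 differed by 0.84 ± 1.47 (limma adjusted p = 0.833), and it changed sign to -0.17 when Meishan 1 was left out. EMB differed by 0.69 ± 1.32 and turned to -0.63 without Yorkshire 4. In the first group 43 of 56 probesets had the higher mean in Meishan and in the second 42 of 49 in Yorkshire gilts, but 0 of either were called and members of a group share the same gilts, so these counts are not independent.

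Other probesets of the same genes were compared. For 39 of the 82 singly named probesets the array holds a second one for the gene, here the brightest other. In 13 cases the second was also among the 150 and the deviations correlated at 0.96 to 0.99 over 8 gilts (STC1, EMB, LPAR3, GBP1, BCAT1 and FGL2), but there the rule had chosen both probesets of a pair for their spread. In the other 26, where the rule had not chosen the second probeset, the median r was 0.54, with 9 (34.6%) above 0.7 and 7 below 0. Over the 1605 bright genes with a second probeset the median was 0.40, and 25.2% exceeded 0.7.

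The spread was seen again at a second probeset outside the 150 for IL1B (r = 0.98), PIK3IP1 (0.98), THY1 (0.97), ATP1B1 (0.96), TGFB2 (0.93) and FGG (0.90), each over 8 gilts. Of these, the second probesets of IL1B, THY1 and FGG were dim, with a mean log2 signal of 6.78, 7.80 and 7.93, and another probeset that the study's table gives to THY1 correlated at only 0.21. It was not for CAPNS1 (the small subunit of calpains), whose probeset among the 150 gave 763, 6728, 1754 and 1628 in Meishan 1 to 4 and 4128, 7718, 10150 and 389 in Yorkshire 1 to 4. Its second probeset was brighter, had a pooled SD of 0.28 and correlated at -0.68. AMY2 had a second probeset outside the pair in the group, with a pooled SD of 0.28 and an r of -0.09, and those of WFDC2 (-0.06, at a dim mean log2 signal of 6.38) and COQ6 (-0.20, at 8.84) both had an SD of 0.21. RACK1, a ribosomal scaffold protein, had a brighter probeset with a pooled SD of 0.13 (r = 0.45). The values of such genes hold for the probeset and not for every transcript of the gene.

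**Figure D5:**
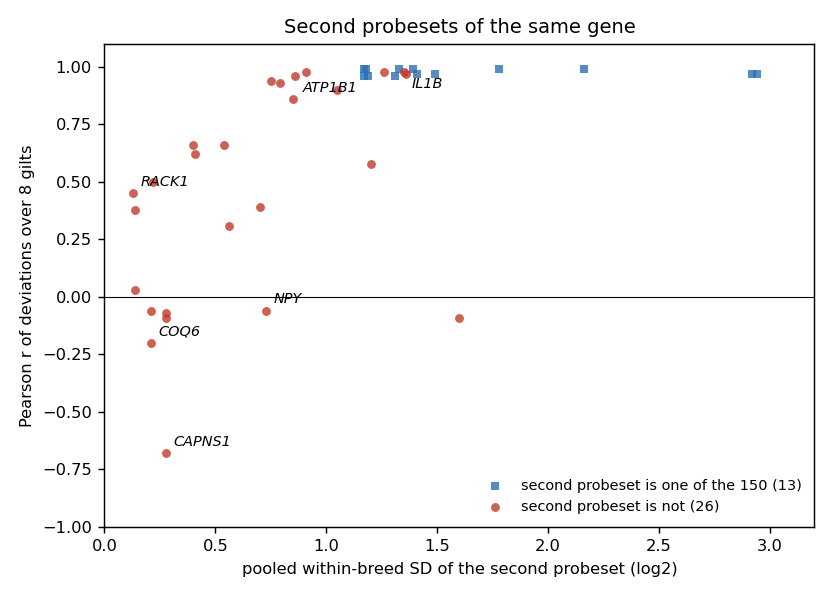
Pearson r of within-breed deviations over 8 gilts between a probeset of the 150 and the brightest other probeset of its gene (y axis), against the pooled SD of that other probeset (x axis, log2). Second probesets that are among the 150 lie at 0.96 to 0.99, and those under an SD of 0.3 lie at or below 0.50, down to -0.68 for CAPNS1.

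Lists of genes by function showed where named members fell. Over 4379 bright named genes 1.69% had a probeset among the 150 and the median pooled SD was 0.28. Since only bright probesets could be chosen, counts are over the bright genes of each list. Of 18 bright genes for transport of ions, water and solutes 5 had one, ATP1B1, SLC2A3, SLC39A2, AQP3 and SCNN1B, and the median pooled SD was 0.73. Of 17 bright genes of epithelial secretion 4 did, TF, IGFBP2, WFDC2 and STC1, with a median of 0.63. SLC39A2 lay in the second group and the other 4 transport genes in the first, and 3 of the 4 secreted ones lay in the second.

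Prostaglandin and steroid metabolism had 3 of 12 bright genes among the 150, PTGS2, CBR2 and SULT1E1, with a median pooled SD of 0.49. Interferon-stimulated genes had 2 of 16, GBP1 and GBP2, with a median of 0.58, acute phase and innate defence genes 2 of 10, DEFB1 and IL1B, and stromal fibroblast genes 2 of 11, COL3A1 and THY1. Conceptus genes had 2 of 5, IFNG and IL1B, the highest share of any list (40.0%) but over few genes, with a median of 0.27. The other bright genes of that list varied little, GATA2 with a pooled SD of 0.16, DAB2 with 0.27 and APOA1 with 0.25. IL1B was on both that list and the one of innate defence. Heat shock genes had 1 of 25, CRYAB. Other lists had 0 among singly named probesets. Those of cell types were short: B and plasma cells (2 bright genes), macrophages and granulocytes (7), mast cells (1), T and NK cells (1), endothelium (9), erythrocytes (2) and ciliated cells (1). The rest were antigen presentation (13), immediate early genes (18), cell cycle (7) and extracellular proteases (11). Beside 1.69% over all bright named genes, 0 in lists of this size says little about them. Left out of these counts were 3 of the 150 that the annotation gives to SLA-DRB1 or SLA-1 (swine leukocyte antigens of the antigen presentation list) together with a second symbol, and LOC396781, whose synonym IGHG is on the list of B and plasma cells. The 7 bright cell cycle and 18 bright immediate early genes had a median pooled SD of 0.43 and 0.52. These counts are a description, since the lists were chosen with earlier results of these data known.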

How the data were processed

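Total RNA of endometrium from 4 Meishan and 4 Yorkshire gilts had been hybridised to Affymetrix Porcine Genome arrays, 1 per gilt. The deposited values were linear signal intensities that the authors had made from the array images with GCOS 1.2, scaled to a 2% trimmed mean of 500.1. Background correction is not given in the sources used here. The authors compared natural logs of the signals in a mixed model in SAS.

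Of 24123 probesets 124 controls were removed. Signals were put on the log2 scale and each array was centred on its median, with the mean of the 8 medians (7.52) added back. Breeds were compared by limma 3.58.1 in R 4.3.3 (prior degrees of freedom 2.09), two-sided, with Benjamini-Hochberg adjustment over 23999 probesets. Calls were made at an adjusted p under 0.1, which 218 probesets passed. The study also used 0.1, but on q values, another estimate of the false discovery rate, from its own model. Calls here are therefore not those of the study. Groups were cut with scipy 1.17.1 in Python 3.11.15, and figures were drawn with matplotlib 3.10.9. The procedure was tested on simulated data.

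Probesets were named from the array annotation, where 0 symbols changed through Entrez identifiers, and otherwise from the study's supplementary table, from which names only were taken. Both name 7 of the 150, and differently in 2 cases. Named are the 20 most variable genes with 1 symbol, the 5 most variable of each group, members of 21 lists of genes, and the probesets on either side of the limit. Others were named after their values were seen. The probesets and the lists were chosen with earlier results of these data known. Columns left unmapped numbered 0.

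Gilts sharing a replicate number did not deviate together (r = -0.0561, 0.0890, 0.00105 and 0.0407 over all probesets, and -0.476, 0.386, 0.378 and 0.186 over the 150, for numbers 1 to 4), so the numbers were not read as pairs. Alternatives were other scalings, a floor of 32, other levels, measures of spread and trees, other variance models, the replicate number as a block and leaving out gilts.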

Additional observations from a re-analysis of the deposited data

Results flagged for a closer look

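In each breed the 4 gilts were checked for 1 value far from the other 3 on the log2 scale (a gap to the nearest gilt over 0.829 of the range). Of 74 sets of 4 gilts, 12 held such a gilt, where chance gives about 1 in 20 for values not chosen for their spread, as these were. Yorkshire 4 was the distant gilt in 8, Meishan 1 in 3 and Yorkshire 3 in 1.

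Low in Yorkshire 4 were EMB at 111 (other Yorkshire gilts 3970 to 4600), LOC100517803 at 841 (4010 to 5130), NMB at 1550 (15300 to 19400), SLC39A2 at 1910 (10700 to 12100) and TF at 467 (1010 to 1160). High in Yorkshire 4 were AMY2 at 5760 (272 to 451), TMEM100 at 12000 (802 to 1090) and ATP1B1 at 2320 (340 to 395). Low in Meishan 1 were LOC100517803 at 64.1 (other Meishan gilts 810 to 1010), NMB at 1140 (6860 to 9680) and IGFBP2 at 110 (597 to 741). FGG was low in Yorkshire 3 at 340 (1290 to 1390).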

How the results depend on the processing

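Other scalings and a floor of 32 kept at least 142 of the 150 probesets, the larger SD in place of the pooled SD kept 131 and the mean absolute deviation 133. A minimum level of 7 kept 97 and one of 9 kept 99. Leaving out 1 gilt kept 110 to 134, fewest without Yorkshire 4. With 1 gilt left out and 150 probesets chosen anew, a single gilt held most of the squared deviations in 29 to 78 of them. The rise to 66 without Meishan 1 and 78 without Yorkshire 4 contrasts with 29 to 50 without any other gilt. The first and second groups were never joined in any alternative run, but with a mean r of -0.71 between them the cuts used could hardly join them. Other levels and measures of spread left the values of the 150 unchanged, so they could not alter the groups. Complete linkage kept only 27 and 16 of the members of the 2 groups together, and without Yorkshire 4 the second kept 21 of 49. Breed calls among the 150 rose from 0 to 3 (2.00%) with a floor of 32, 6 (4.00%) with an intensity trend and 3 (2.00%) with array weights, as the share called over all probesets rose from 0.908% to 3.6%, 2.61% and 2.07%, and were 0 to 1 with 1 gilt left out (a probeset the study's table names LOC100509246 without Yorkshire 1, ATP2C1 without Yorkshire 2, RIMS4 without Yorkshire 4). With the replicate number as a block limma called 0 of all 23999 probesets, so its 0 calls among the 150 (26 at an unadjusted p under 0.05) say nothing about them. With Meishan 1 and Yorkshire 4 both left out, an alternative chosen after the data were seen, 82 probesets were kept. A single gilt held most of the squares in 78 of the 150 chosen anew. Of the original 150, 1 probeset was called (LOC100517803), and NPY and LOC396781 differed by 0.55 and 1.24.

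Breed differences changed sign in 8 values under the alternatives other than leaving out both gilts, for 4 genes whose difference was smaller than its SE, and not for IFNG or STC1. With 1 gilt left out SULT1E1 ranged from -0.17 to 2.07, EMB from -0.63 to 1.41, NPY from -1.36 to 0.72 and LOC396781 from -0.76 to 0.64, and NPY was 0.00 with array weights. The other values comprised 302 that kept direction and call and 13 that passed the threshold. The causes were not tested. The number of gilts limits every value.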
